A study of Mus musculus with 12 samples.

Results

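A set of 7 genes best known from fat cells was followed in mouse liver RNA. It holds Cfd, Pparg, Fabp4, Adipoq, Plin1, Plin4 and Lpl. They are 7 of the 55359 genes in the count table, found there by their Ensembl identifiers. They were selected on their measured levels in these same libraries across the 3 groups, known from earlier results, so their own differences between groups are described with their spread and carry no p-value. The label "adipocyte-like" holds for only some of them, since Adipoq and Plin1, the genes that define a fat cell most closely, had at most 3 counts in any library.

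Livers came from 12 male C57BL/6NTac mice, 4 in each of 3 groups. NM-FGF19 mice, kept on high-fat diet, were given NM-FGF19 mRNA, which encodes a non-mitogenic form of the gut hormone FGF19, in lipid nanoparticles (mRNA-LNPs). HFD control mice ate the same diet and received Control-mRNA in lipid nanoparticles. Lean mice ate normal chow and also received Control-mRNA. Dosing was weekly for 6 weeks, and liver was taken 24 hours after the last dose. The HFD control libraries alone carry the name mOX40L in their descriptions, so whether both control groups received one control mRNA cannot be told from the labels. The sources put the diet at 21 weeks up to the first dose, and elsewhere at 28 weeks in total, in mice said to be 24 weeks old. Libraries were made from liver sections, so fewer cells of a type and less RNA per cell cannot be told apart.

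PPAR-gamma, encoded by Pparg, is a nuclear receptor that drives fat cell formation and, with its partner RXR, switches on genes for taking up and storing fat. It is scarce in healthy hepatocytes, and rises in fatty livers of mice, where it activates several genes otherwise typical of fat. Fabp4 (a fatty acid carrier), Lpl (lipoprotein lipase, which releases fatty acids from circulating triglyceride), Plin1 and Plin4 (perilipins, which coat lipid droplets), and Adipoq and Cfd (the secreted proteins adiponectin and complement factor D, also called adipsin) are all abundant in fat cells. Macrophages and capillary endothelial cells also make Fabp4 and Lpl.

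Promoter windows are shown for the genes with the largest log2 changes in NM-FGF19 against HFD control livers (Cfd, Plin4), for their regulator Pparg and for the nearly silent Plin1. Each window is 300 bases, 250 before and 50 after the transcription start, from RefSeq on build GRCm38.p6, an older build than the mm39 of the counts. RefSeq entries were at hand for 5 of the 7 genes (7 windows, since Pparg has 3 starts), and none for Fabp4 and Lpl. Capitals mark AGGTCA, the short site read by many nuclear receptors, and TTGCNNAA, a pattern that includes the core of the C/EBP site. The windows below read 5′ to 3′ on the coding strand.
Cfd (chr10:79890603-79890902, plus strand): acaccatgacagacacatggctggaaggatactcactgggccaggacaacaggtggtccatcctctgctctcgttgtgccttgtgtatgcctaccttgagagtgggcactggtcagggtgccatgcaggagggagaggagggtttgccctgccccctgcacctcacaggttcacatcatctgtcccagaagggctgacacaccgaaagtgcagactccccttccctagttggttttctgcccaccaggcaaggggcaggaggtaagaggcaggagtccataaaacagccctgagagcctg
Plin4 (chr17:56109733-56110032, minus strand): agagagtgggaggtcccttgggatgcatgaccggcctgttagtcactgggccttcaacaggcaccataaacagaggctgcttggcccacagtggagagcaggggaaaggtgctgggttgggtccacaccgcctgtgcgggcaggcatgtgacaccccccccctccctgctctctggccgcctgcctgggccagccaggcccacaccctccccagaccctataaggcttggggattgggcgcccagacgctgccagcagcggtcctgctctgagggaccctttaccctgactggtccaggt
Pparg, the third start (chr6:115421816-115422115, plus strand): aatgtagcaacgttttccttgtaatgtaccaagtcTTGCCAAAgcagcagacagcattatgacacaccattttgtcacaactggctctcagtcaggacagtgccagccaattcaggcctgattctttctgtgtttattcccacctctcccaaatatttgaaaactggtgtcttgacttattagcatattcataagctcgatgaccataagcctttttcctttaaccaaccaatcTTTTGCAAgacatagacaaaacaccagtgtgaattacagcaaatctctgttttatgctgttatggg
Plin1 (chr7:79732727-79733026, minus strand): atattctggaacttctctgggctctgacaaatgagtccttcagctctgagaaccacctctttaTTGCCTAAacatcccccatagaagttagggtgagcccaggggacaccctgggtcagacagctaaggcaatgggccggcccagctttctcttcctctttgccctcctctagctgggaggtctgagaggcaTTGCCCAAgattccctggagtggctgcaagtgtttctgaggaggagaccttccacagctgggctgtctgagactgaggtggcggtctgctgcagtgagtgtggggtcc

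An exact direct repeat of AGGTCA with 1 base between, the ideal form of the PPAR response element, was sought on both strands. It was in 0 of the 7 windows and in 0.0396% of the 32851 RefSeq windows. So rare a string would hardly be met in 7 windows, and looser matches were not searched. The single AGGTCA, which also lies inside that repeat, was in 2 of the 7, both at other Pparg starts, against 16.3% of all windows. TTGCNNAA was in 2 of the 7, against 10.8% of all windows. Those 2 windows are the ones shown for Pparg, with matches at -215 to -208 and -16 to -9 from the start, and for Plin1, at -187 to -180 and -58 to -51. The Cfd and Plin4 windows held neither pattern. These are letters found in short windows, and counts per gene do not say which Pparg start was used.

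Levels are CPM, each library's share of its counted reads on the usual CPM scale, adjusted by TMM factors. The libraries held 23743415 to 33257260 counts, and 3 counts corresponded to 0.0792 to 0.153 CPM. On the first 2 principal components of all tested genes, lean 3 lay farthest from its group mean, followed by HFD control 3, NM-FGF19 4 and HFD control 2. Each is named below where it stands out.

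**Figure D1:**
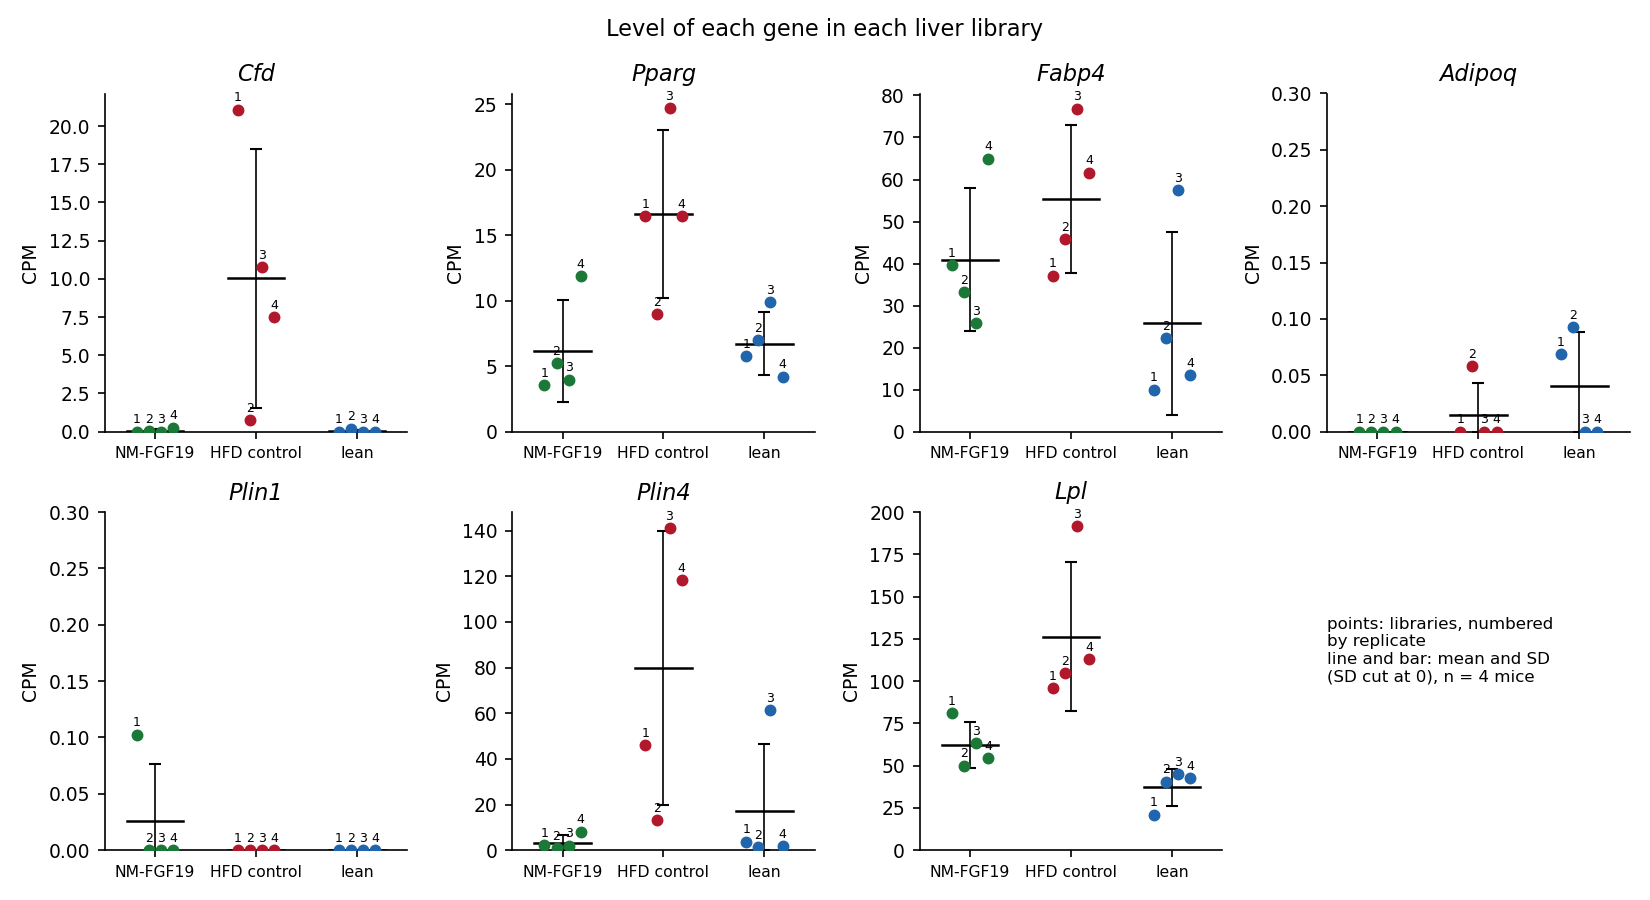
CPM of each gene (vertical axes, linear, one per gene) in each liver library, numbered by replicate, with the group mean and SD (n = 4). The 4 HFD control libraries sit above every NM-FGF19 library for Cfd, Plin4 and Lpl, and Adipoq and Plin1 stay near 0 in all 12.

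The regulator comes first. Pparg was at 3.55, 5.23, 3.98 and 11.9 CPM in NM-FGF19 livers, at 16.5, 8.98, 24.7 and 16.5 CPM in HFD control livers and at 5.75, 6.97, 9.89 and 4.197 CPM in lean livers. HFD control 2 was the low library of its group and lay below NM-FGF19 4 and lean 3, the high ones of theirs. The group means were 6.17 ± 3.89, 16.7 ± 6.43 and 6.70 ± 2.41 CPM (SD, n = 4 each), in NM-FGF19, HFD control and lean livers. HFD control livers thus held 2.48 times the mean of lean livers, a log2 change of 1.32 ± 0.41 (SE). In NM-FGF19 livers the log2 change was -1.43 ± 0.41 against HFD control and -0.12 ± 0.41 against lean. An antisense gene on the other strand of Pparg, Gm44079, had at most 2 counts in a library.

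Cfd, a protease that activates the alternative complement pathway, was the most uneven of the set. It had 0, 1, 0 and 8 counts in NM-FGF19 livers, 798, 26, 404 and 264 counts in HFD control livers and 0, 4, 0 and 0 counts in lean livers. In CPM these are 0, 0.0385, 0 and 0.264 in NM-FGF19 livers, 21.1, 0.754, 10.8 and 7.504 in HFD control livers and 0, 0.186, 0 and 0 in lean livers. Every HFD control library was above every other library, although HFD control 2 was far below the other 3. Summed over libraries and scaled to CPM, HFD control livers held 240 times the reads of lean livers, with an exact 95% counting interval of 66.1 to 1983. NM-FGF19 livers held 0.00757 times those of HFD control livers (interval 0.00272 to 0.0197). Of the values from 1 to 20 in the whole table, 70.5% were even, and the sources do not say whether both mates of a pair were counted. These intervals therefore rest on each count divided by 2. They cover counting error only. The log2 changes of Cfd were 7.72 ± 1.31 for HFD control against lean and -6.94 ± 1.18 for NM-FGF19 against HFD control. They became 11.24 without lean 2, the only lean library with a Cfd read, and -9.29 without NM-FGF19 4.

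Adipoq, the hormone made in bulk by fat cells, had 0 counts in all 4 NM-FGF19 livers, 0, 2, 0 and 0 in HFD control livers and 2, 2, 0 and 0 in lean livers. On these few reads it was no higher in the HFD control livers, the group in which Cfd was high. Both secreted proteins are fat cell products, and only Cfd was found in these livers above a few reads.

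The perilipins were as unlike each other. Plin1, the main droplet coat protein of fat cells, had 3, 0, 0 and 0 counts in NM-FGF19 livers and none in the 8 HFD control and lean livers. Plin4, a perilipin of small nascent droplets, was at 2.32, 0.924, 2.04 and 8.08 CPM in NM-FGF19 livers, at 46.0, 13.2, 141 and 118 CPM in HFD control livers and at 3.66, 1.25, 61.2 and 1.88 CPM in lean livers. No NM-FGF19 library reached the lowest HFD control library, and lean 3 alone among lean livers lay within the HFD control range. The means were 3.34 ± 3.22, 79.7 ± 60.02 and 17.0 ± 29.5 CPM (SD, n = 4 each), in NM-FGF19, HFD control and lean livers. Plin4 changed by -4.57 ± 1.38 on the log2 scale in NM-FGF19 against HFD control livers and by 2.24 ± 1.23 in HFD control against lean livers. The change in HFD control against lean livers became 5.13 without lean 3, and the change in NM-FGF19 against lean livers, -2.33 ± 1.28, turned to 0.56 without it. Hdgfl2, which overlaps Plin4 on the other strand, stood at 33.8 ± 2.81, 32.9 ± 1.19 and 42.6 ± 1.58 CPM in NM-FGF19, HFD control and lean livers, and was lower in HFD control than in lean livers (edgeR adjusted p = 0.0272).

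Fabp4 and Lpl, which handle incoming fatty acids, were expressed in every library. Fabp4 was at 39.7, 33.2, 25.8 and 65.0 CPM in NM-FGF19 livers, at 37.2, 45.8, 76.8 and 61.6 CPM in HFD control livers and at 10.001, 22.2, 57.5 and 13.4 CPM in lean livers. All 3 groups overlapped, with NM-FGF19 1, NM-FGF19 4 and lean 3 within the range of HFD control livers. Its log2 change was 1.11 ± 0.50 in HFD control against lean livers, -0.44 ± 0.49 in NM-FGF19 against HFD control livers and 0.67 ± 0.50 in NM-FGF19 against lean livers. Without lean 3 the changes against lean livers became 1.89 in HFD control livers and 1.45 in NM-FGF19 livers. Without NM-FGF19 4 the change in NM-FGF19 against HFD control livers became -0.75.

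Lpl was at 81.1, 49.9, 63.2 and 54.3 CPM in NM-FGF19 livers, at 95.9, 105, 192 and 113 CPM in HFD control livers and at 20.9, 40.5, 44.8 and 42.7 CPM in lean livers. It was the only one of the set whose 3 groups did not overlap at all, with NM-FGF19 livers between the other two. The means were 62.1 ± 13.8, 126 ± 44.1 and 37.2 ± 11.01 CPM (SD, n = 4 each), in NM-FGF19, HFD control and lean livers. The log2 change of Lpl was 1.76 ± 0.27 in HFD control against lean livers, and 1.49 to 1.90 with any 1 library left out. It was -1.02 ± 0.27 in NM-FGF19 against HFD control livers and 0.74 ± 0.27 in NM-FGF19 against lean livers.

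Per kilobase of annotated exon, so that genes can be set side by side, the mean levels in HFD control livers were 13.8 CPM per kilobase for Plin4, 12.3 for Fabp4, 12.1 for Lpl, 10.9 for Cfd and 5.64 for Pparg. The first 4 differed by less than the spread of Cfd or Plin4 between mice. In NM-FGF19 livers the order was Fabp4 (9.11), Lpl (5.93), Pparg (2.09), Plin4 (0.578) and Cfd (0.0820). In lean livers it was Fabp4 (5.74), Lpl (3.55), Plin4 (2.94), Pparg (2.27) and Cfd (0.0504), with lean 3 well above the other lean livers for Fabp4 and Plin4.

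Each gene was read from one fit of all 15274 genes that passed a filter on low counts, with edgeR's quasi-likelihood F test and a Benjamini-Hochberg adjusted p under 0.05 as the call. Of the 7 genes, 5 passed the filter, and Adipoq and Plin1 did not. Cfd and Lpl were called higher in HFD control than in lean livers, where 5.04% of all tested genes were, and the same 2 were above every lean library, as 8.4% of all tested genes were. None was called lower, beside 3.29% of all tested genes, and none was below every lean library, beside 6.89%. Because these genes were picked with that difference known, nothing is read from the count. Among the 5, the median log2 change was 1.76, against -0.02 for all tested genes. The call of Cfd was lost with limma voom and without both lean 3 and HFD control 3, and the filter of 1 CPM in 4 samples left it untested. Without lean 3 alone Fabp4 and Plin4 were called too. Pparg was called as well without HFD control 2, with only the 2 groups in the fit, with library totals and by DESeq2, which called 8.5% of all tested genes higher. With library totals Fabp4 was also called.

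In NM-FGF19 against HFD control livers, 1 of the 5, Cfd, was called lower, beside 0.151% of all tested genes. Cfd, Plin4 and Lpl were below every HFD control library, as 2.38% of all tested genes were. None was called higher, beside 0.282%, and none was above every HFD control library, beside 3.23%. As these genes were chosen with this difference known too, nothing is read from the counts. This comparison shares the HFD control libraries with the diet comparison. The median of the 5 was -1.43, against 0.00 for all tested genes. The call of Cfd was lost without any 1 of NM-FGF19 1, 2 or 3 or HFD control 1, 3 or 4, and without NM-FGF19 4 Pparg was called as well. DESeq2 called 4 lower (Cfd, Pparg, Plin4 and Lpl), beside 0.746% of all tested genes, and limma voom 0.

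In NM-FGF19 against lean livers, edgeR, DESeq2 and limma voom each called 0 of the 5, beside 1.01% of all tested genes called higher and 0.484% called lower by edgeR. At an unadjusted p under 0.05, 1 of the 5 (Lpl) was higher, beside 9.16% of all tested genes. Lpl was also above every lean library, as 5.46% of all tested genes were. The genes were chosen with their levels in all 3 groups known, and nothing is read from these counts. None was below every lean library, beside 4.84%. The median of the 5 was 0.67, against -0.01 for all tested genes.

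**Figure D2:**
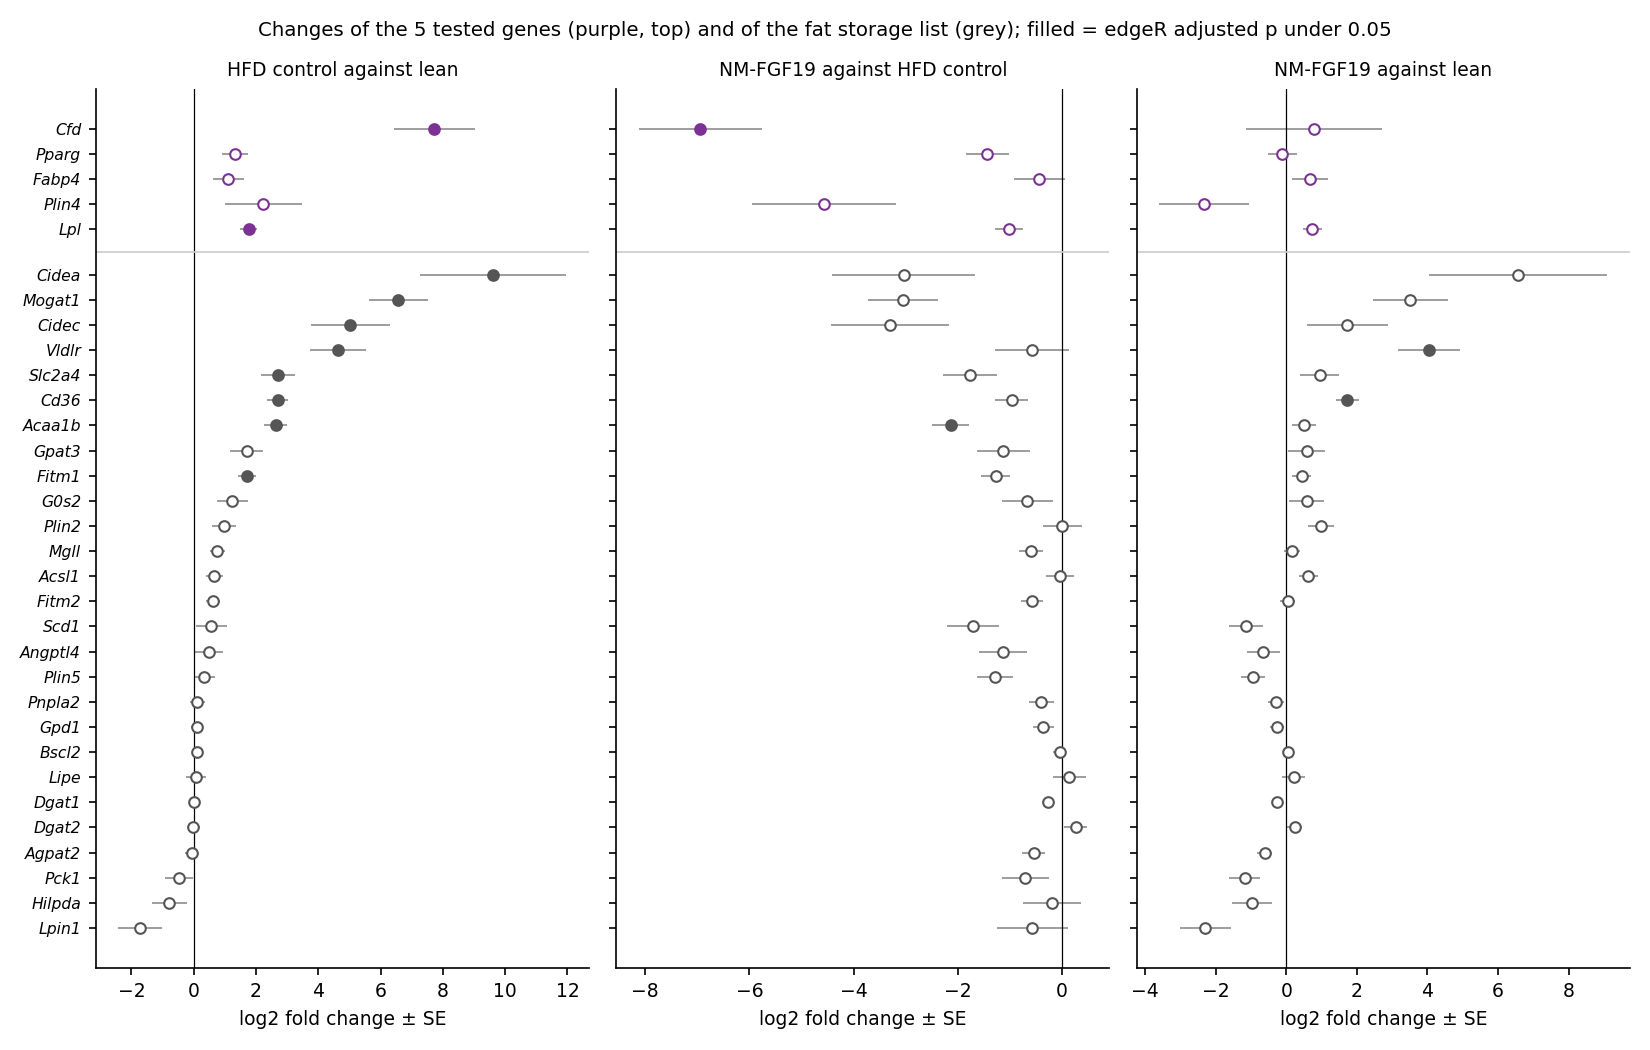
Log2 fold changes with their SE (horizontal axes) of the 5 tested genes and of the 27 tested genes of the fat storage list, in the 3 comparisons; filled points have an edgeR adjusted p under 0.05. On the fat storage list 8 genes rose in HFD control against lean livers. The 1 that fell in NM-FGF19 against HFD control livers was Acaa1b, a peroxisomal oxidation gene.

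Other genes that PPAR-gamma activates or that store fat were counted from a list without the 7. The list too was chosen with earlier results of these data known, so nothing is read from its counts. In HFD control against lean livers, 8 of the 27 tested rose, 0 fell and 19 did not pass (edgeR). Of all tested genes, 5.04% were called higher and 3.29% lower. The list median was 0.62 against -0.02 for all tested genes. Cd36, a fatty acid transporter and PPAR-gamma target, rose by 2.70 ± 0.34 on the log2 scale (edgeR adjusted p = 0.00267), to 193 ± 101 CPM in HFD control livers against 29.8 ± 4.37 CPM in lean livers (SD, n = 4 each). Acaa1b, a peroxisomal oxidation gene, rose by 2.63 ± 0.36 (edgeR adjusted p = 0.00287). Mogat1, which adds a fatty acid to monoacylglycerol, had 360 counts in HFD control livers against 2 in lean livers (edgeR adjusted p = 0.00317).

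The other 5 that rose were Cidea and Cidec, which fuse lipid droplets, Slc2a4, the insulin-regulated glucose transporter of fat and muscle, Fitm1, which partitions triglyceride into droplets, and Vldlr, a lipoprotein receptor. Of the 8 fits without 1 library, 6 lost the call of Cidea, where its edgeR adjusted p reached 0.109. It passed without HFD control 2 and without HFD control 4. Cidec was at 3.10, 1.77, 2.44 and 19.8 CPM in NM-FGF19 livers. It was at 22.2, 3.45, 199 and 44.2 CPM in HFD control livers and at 2.57, 2.37, 1.17 and 2.01 CPM in lean livers. Its log2 change of 5.03 ± 1.25 in HFD control against lean livers (edgeR adjusted p = 0.035) passed in 1 of the 8 leave-one-out fits, the one without HFD control 2. It became 3.51 at its lowest in these fits. As with Plin4, Cfd and Pparg, HFD control 2 was the lowest of its group and NM-FGF19 4 the highest of its own, but unlike Plin4, Cidec was not raised in lean 3.

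In NM-FGF19 against HFD control livers, 1 of the 27 fell, 0 rose and 26 did not pass, and the list median was -0.60 against 0.00. Of all tested genes, edgeR called 0.151% lower and 0.282% higher. The 1 was Acaa1b, the peroxisomal oxidation gene named above. Acaa1b was at 241 ± 91.8 CPM in NM-FGF19 livers against 1057 ± 408 CPM in HFD control livers, a log2 change of -2.14 ± 0.36 (edgeR adjusted p = 0.0221). Its call was lost in 6 of 8 fits without 1 library, all but those without NM-FGF19 3 or HFD control 2, with adjusted p up to 0.0802. Without HFD control 2, 3 of the list fell. At an unadjusted p under 0.05, 15 of the 27 were lower and 0 higher. The share of all tested genes at that threshold is not given, so this count cannot be weighed. DESeq2 called 6 lower, beside 0.746% of all tested genes, and limma voom 1. The HFD control libraries are shared with the diet comparison. Because the list was chosen with earlier results known, nothing is read from these counts.

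In NM-FGF19 against lean livers, 2 of the 27 rose, 0 fell and 25 did not pass. Of all tested genes, edgeR called 1.01% higher and 0.484% lower. Cd36 rose by 1.73 ± 0.33 on the log2 scale (edgeR adjusted p = 0.0247) and Vldlr by 4.04 ± 0.89 (edgeR adjusted p = 0.0496). Each lost its call without any 1 of the lean libraries or without NM-FGF19 1 or 4, and Vldlr also without NM-FGF19 2. The adjusted p reached 0.0764 for Cd36 and 0.117 for Vldlr.

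Immediate partners of the 7 genes were counted by the same test, beside the shares of all 15274 tested genes that edgeR called. In HFD control against lean livers these were 5.04% higher and 3.29% lower. In NM-FGF19 against HFD control livers they were 0.282% and 0.151%, and in NM-FGF19 against lean livers 1.01% and 0.484%. No share stands beside the unadjusted, DESeq2 and limma voom counts here. The lists were chosen with earlier results known, so nothing is read from any of these counts. Among factors that make fat cells or bind PPAR-gamma (RXR, C/EBP factors, coactivators and corepressors), 1 of 22 rose in HFD control against lean livers, 0 fell and 21 did not pass. That 1 was Zfp423, a factor of fat cell precursors, at 1.75 ± 0.48 (edgeR adjusted p = 0.0403), and its call held in 2 of the 8 leave-one-out fits, those without HFD control 2 or lean 2. Without adjustment 2 of the 22 were higher and 4 lower in HFD control against lean livers, where DESeq2 called 2 higher and 1 lower and limma voom 0. In the other comparisons edgeR called 0 of the 22. For NM-FGF19 against HFD control 0 were higher and 1 lower at an unadjusted p under 0.05, with 0 called by DESeq2 and limma voom. For NM-FGF19 against lean 0 were higher and 2 lower, with 2 called by DESeq2 and 0 by limma voom. Of the partners and inhibitors of lipoprotein lipase 0 of 14 were called by edgeR in each of the 3 comparisons, with 0 higher and 1 lower at an unadjusted p under 0.05 in HFD control against lean livers, where DESeq2 called 1 lower and limma voom 0. The unadjusted counts were 1 higher and 1 lower in NM-FGF19 against HFD control livers and 0 of either in NM-FGF19 against lean livers, where DESeq2 and limma voom called 0. Of adiponectin receptors and assembly factors, edgeR called 0 of 8 in each of the 3 comparisons. In HFD control against lean livers 0 of these were higher and 2 lower at an unadjusted p under 0.05, and neither DESeq2 nor limma voom called any. In NM-FGF19 against HFD control livers 1 was higher without adjustment and by DESeq2, with 0 by limma voom, and in NM-FGF19 against lean livers all these counts were 0.

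Within the alternative complement pathway that Cfd starts, 1 of 11 genes fell in HFD control against lean livers, 0 rose and 10 did not pass. Of all tested genes, edgeR called 3.29% lower and 5.04% higher in that comparison. Cfi, which inactivates the pathway's C3b, fell by 0.87 ± 0.16 on the log2 scale (edgeR adjusted p = 0.00848), to 456 ± 77.9 CPM in HFD control livers against 835 ± 118 CPM in lean livers. C3, the substrate of the pathway, was at 7591 ± 2240 CPM in HFD control livers against 13129 ± 5274 CPM in lean livers and did not pass. Without adjustment 2 of the 11 were higher and 5 lower in HFD control against lean livers, where DESeq2 called 1 higher and 5 lower and limma voom 0 higher and 1 lower. Among Fabp and perilipin relatives, 1 of 7 rose, 1 fell and 5 did not pass in the same comparison. Fabp2, an intestinal-type carrier, rose by 1.98 ± 0.38 (edgeR adjusted p = 0.0127). Fabp5, a near relative of Fabp4, fell by 2.67 ± 0.62 on the log2 scale (edgeR adjusted p = 0.0261), and 7 of 8 fits without 1 library lost that call. It was kept without lean 1. In the other comparisons edgeR called 0 of the 11 complement genes and 0 of the 7 relatives. The shares of all tested genes are those given for the partners. Without adjustment, 2 complement genes were higher and 0 lower in NM-FGF19 against HFD control livers, and 0 higher and 4 lower in NM-FGF19 against lean livers. DESeq2 called the first 2 and 0 of the others, and limma voom 0. Of the relatives, 0 were higher and 1 lower, and 3 higher and 3 lower, in those 2 comparisons, with 1 called by DESeq2 in each and 0 by limma voom. No share of all tested genes stands beside the unadjusted counts, and nothing is read from the counts of either list.

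**Figure D3:**
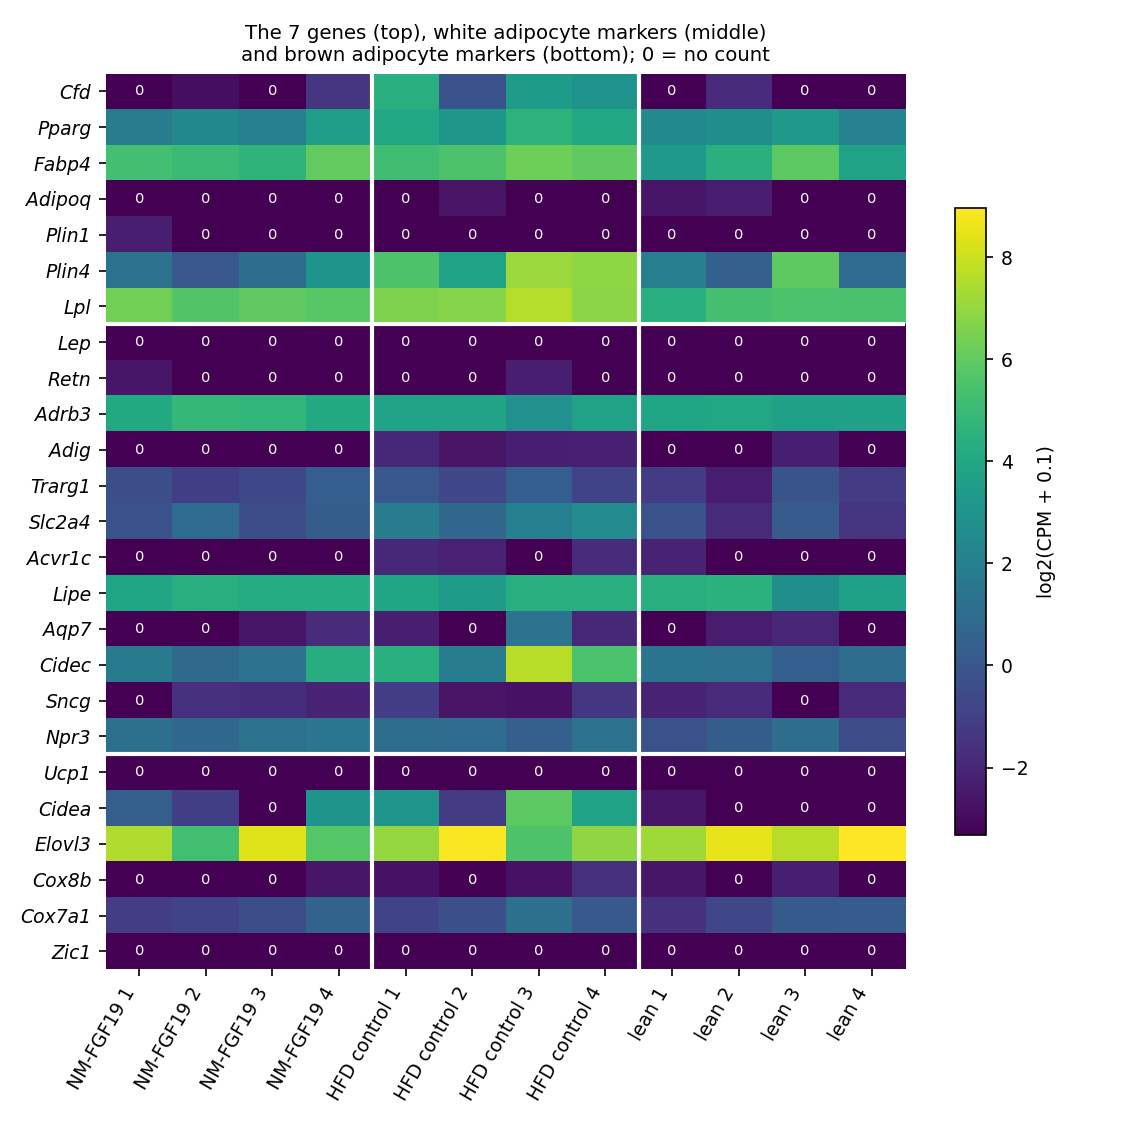
Levels, as log2(CPM + 0.1) in colour, of the 7 genes, of 12 white adipocyte markers and of 6 brown adipocyte markers (rows) in the 12 libraries (columns), with a 0 where a library had no count. Lep, Ucp1 and Zic1 had no count in any library, whereas Cidec was highest in HFD control 3, at 199 CPM.

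Markers of fat cells were read alongside. Of 12 white adipocyte markers, 11 had a count, and Lep (leptin) had none in any library. Retn (resistin) had at most 4 counts in any library. Adig, a small fat cell membrane protein, had 0 counts in all 4 NM-FGF19 livers, 6, 2, 4 and 4 in HFD control livers and 0, 0, 2 and 0 in lean livers. The summed level of the 12 was 40.1 to 61.5 CPM in NM-FGF19 livers, 33.0 to 236 CPM in HFD control livers and 25.2 to 43.0 CPM in lean livers. HFD control 3, with 199 CPM of Cidec alone, gave the highest sum. Adrb3, the fat cell adrenergic receptor, had 255 to 822 counts in every library, but it overlaps Gm45470 on the other strand, which had up to 795, and the sources give no strand mode of counting. Of the 6 that could be tested, 2 (Slc2a4 and Cidec, both also on the fat storage list) rose in HFD control against lean livers. Of all tested genes 5.04% were called higher there, and nothing is read from the count. Ucp1 and Zic1, of 6 brown adipocyte markers, had no count, and the summed level of the 6 was 38.9 to 328 CPM in NM-FGF19 livers, 107 to 457 CPM in HFD control livers and 149 to 501 CPM in lean livers. Most of that was Elovl3 in every library but HFD control 3, where Elovl3 stood at 46.7 CPM.

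Markers of other cells were read in the same way. In HFD control against lean livers edgeR called 5.04% of all tested genes higher and 3.29% lower. The lists were chosen with earlier results known, so nothing is read from their counts. Of 9 markers of lipid-associated macrophages, 6 rose in HFD control against lean livers and 0 fell. Among them were Itgax at 3.26 ± 0.36 (edgeR adjusted p = 0.00141), Gpnmb at 7.22 ± 0.74 (edgeR adjusted p = 0.00149) and the chemokine receptor Ccr2 at 2.63 ± 0.34 (edgeR adjusted p = 0.00267). The other 3 did not pass. Spp1 (59.2 against 114 CPM) and Cd9 (19.0 against 24.0 CPM) had lower means in HFD control than in lean livers. Adgre1 had a higher one (30.3 against 26.3 CPM). In NM-FGF19 against lean livers 3 of the 9 were called higher, beside 1.01% of all tested genes. They were Itgax (edgeR adjusted p = 0.00588), Gpnmb (edgeR adjusted p = 0.00795) and Ccr2 (edgeR adjusted p = 0.0142). In NM-FGF19 against HFD control livers 0 of the 9 were called. The summed level of the 9 was 114 to 270 CPM in NM-FGF19 livers, 159 to 497 CPM in HFD control livers and 110 to 359 CPM in lean livers. It was highest in NM-FGF19 4, HFD control 3 and lean 3 of their groups, the libraries with the highest Fabp4 and Plin4 levels. In lean 3, Spp1 alone gave 252 CPM of this sum, while Gpnmb stood at 0.408 CPM and Itgax at 1.53 CPM. The summed level of stellate cell and fibroblast markers was highest in the same libraries, at 905, 1079 and 253 CPM. Endothelial markers summed to 357 to 431 CPM in NM-FGF19 livers, 366 to 435 CPM in HFD control livers and 315 to 389 CPM in lean livers, with 3 of 9 (Tie1, Emcn and Pecam1) called higher in HFD control than in lean livers. Pecam1 lost that call in 7 of 8 fits without 1 library, all but the one without lean 3, with edgeR adjusted p up to 0.11. Hepatocyte markers summed to 82388 to 125517 CPM in NM-FGF19 livers, 47467 to 68490 CPM in HFD control livers and 76515 to 94778 CPM in lean livers. Alb was the largest part, with means of 75269, 33264 and 54574 CPM in that order, and Apoa1 (11998, 7164 and 10736 CPM) was also lowest in HFD control livers. Ttr (4767, 4747 and 4692 CPM) and Hnf4a (695, 689 and 932 CPM) differed little between NM-FGF19 and HFD control livers. Of the 8 hepatocyte markers, 0 were called in each comparison. In HFD control against lean livers 2 of the 8 were lower at an unadjusted p under 0.05, and DESeq2 called 2 and limma voom 0. In NM-FGF19 against HFD control livers 2 were higher, DESeq2 called 2 and limma voom 0, and in NM-FGF19 against lean livers 2 were lower and both called 0. Of 8 stellate cell markers, 4 rose in HFD control against lean livers, and of 6 Kupffer cell markers 5 fell. In NM-FGF19 against lean livers 2 stellate cell markers (Col3a1 and Reln) and 1 endothelial marker (Tie1) were called higher. The calls of Col3a1 and Reln were lost in 6 and 5 of 8 fits without 1 library. No Kupffer cell marker was called there. In NM-FGF19 against HFD control livers none of these 3 lists held a call. Pancreatic acinar, skeletal muscle and mesothelial markers summed to at most 1.33, 2.32 and 10.8 CPM in any library. The part of macrophages and of other cells in the levels of the 7 genes was not tested.

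**Figure D4:**
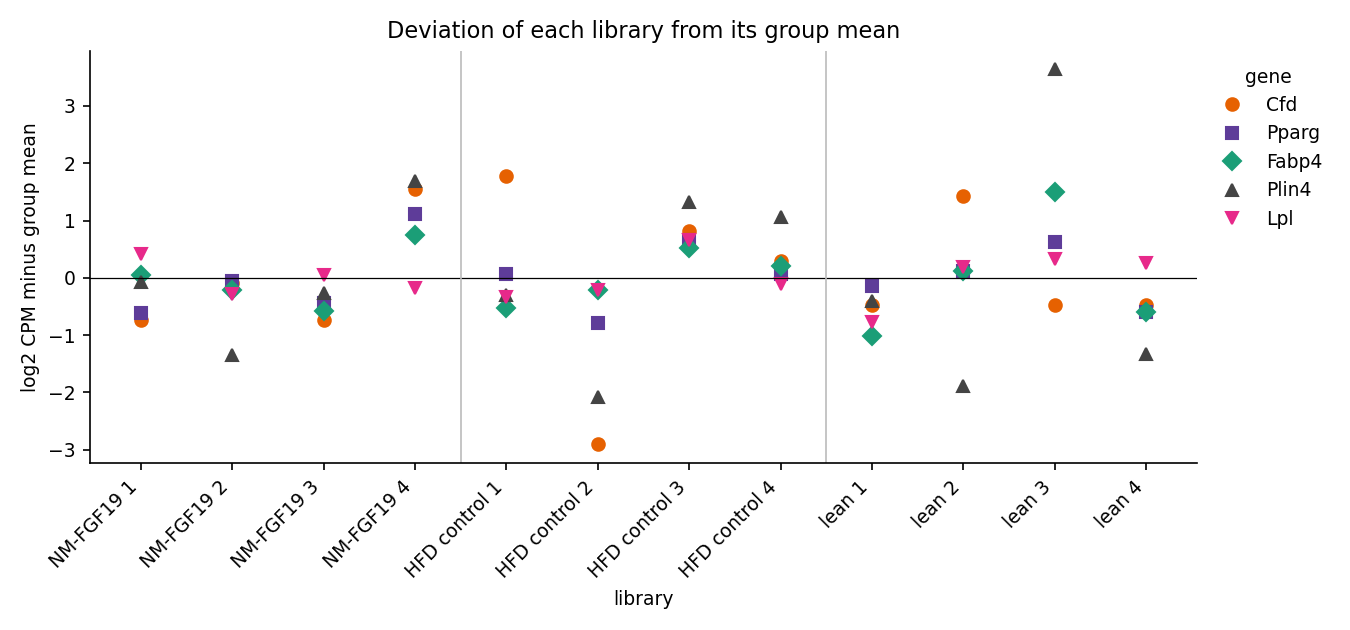
Log2 CPM of the 5 tested genes minus the mean of their own group (vertical axis) in each of the 12 libraries (horizontal axis). NM-FGF19 4 lies above its group mean for 4 of the 5 and HFD control 2 below its own for all 5.

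Within groups, the genes varied together to different degrees. With each group mean removed, Pearson's r over the 12 libraries was 0.759 between Fabp4 and Plin4, 0.714 between Pparg and Plin4, 0.695 between Pparg and Cfd and 0.693 between Pparg and Fabp4. It was 0.126 between Pparg and Lpl. These are descriptions over libraries that share groups and processing, and Cfd rests on few reads in NM-FGF19 and lean livers. For both Plin4 and Fabp4, lean 3 lay farthest of all libraries from its group mean, for Plin4 by 3.64 on the log2 scale. The values of r were not recomputed without lean 3. How far those with Plin4 or Fabp4 depend on that 1 library was therefore not tested. NM-FGF19 4 was the highest of its group for Cfd, Pparg, Fabp4 and Plin4 but not for Lpl, which was highest in NM-FGF19 1. HFD control 3 was the highest of its group for Pparg, Fabp4, Plin4 and Lpl, and Cfd was highest in HFD control 1. HFD control 2 was the lowest for Cfd, Pparg and Plin4.

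The genes most like each member by the same within-group measure were sought among 12784 genes averaging 1 CPM or more. For Pparg they were Pafah1b3 (r = 0.99), Racgap1 (0.96) and Rnd2 (0.95), over 12 libraries. For Plin4 they were Kcnj2, Ankrd37 and Nsmce2 (0.94 each), then Rrm2 and Ffar4 (0.92 each). Trf, for transferrin, was nearest to Fabp4 (0.98), Pgs1 to Lpl (0.93) and Tnfrsf13b to Cfd (0.93). The highest of so many values is high by selection, so no p-value is given. Lean 3, which lay far from its group mean for Plin4 and Fabp4, enters these values too, and none was recomputed without that library.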

How the data were processed

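Liver sections of 12 mice were sequenced, per the labels' protocols, from 100 ng of total RNA with an Illumina stranded mRNA kit as pairs of 101 nt. The authors deposited 1 table of raw counts per gene. Per the submitters' processing notes it was made with Trimmomatic, STAR and featureCounts on mm39; its versions, annotation, strand mode and pair counting are unstated. All 12 columns were mapped by the names in the labels. Symbols matched 52083 of 55359 Ensembl IDs, and the other 3276 IDs held 0.515% of counts.

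Genes passing edgeR's filterByExpr (minimum count 10) went into edgeR 4.0.16 (R 4.3.3): TMM scaling, robust quasi-likelihood F test, 2-sided, 1 fit of all 12 libraries with group as the only term (9 residual degrees of freedom), Benjamini-Hochberg adjustment over all 15274 genes and a threshold of 0.05. Each SE was obtained as the log2 change over the square root of its F statistic. CPM uses the tested counts scaled by TMM, and correlations use log2 CPM with a prior count of 2. Exon lengths are the union of GENCODE M21 exons. One list symbol was matched by an older name. The 7 genes and all lists were chosen with earlier results of these data known. Besides the 7, genes were named by a rule. It took up to 3 called genes per list and comparison with the smallest adjusted p, and up to 2 in the other direction. It also took the 5 genes nearest each member. Any other gene was named after its values were seen. Alternatives were DESeq2 1.42.0, limma 3.58.1 (voom), RLE factors, library totals, 2 other filters, fits of 2 groups, a replicate block and leaving out each library. Replicates differed by at least 36.8 in chi-square per degree of freedom, so none was a repeat of another; whether they are separate litters or cages is not stated.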

Additional observations from a re-analysis of the deposited data

Results flagged for a closer look

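Among 18 sets of 4 libraries (7 genes in 3 groups, leaving out sets with no reads), 5 held a library whose gap to its nearest neighbour took more of the whole range than Dixon's 95% limit, which chance passes in about 1 of 20 sets of continuous values. That rate does not hold for counts near 0: in 3 of the 5 the other libraries had no read, so any read passes, and 1 more rests on 8 counts. Plin4 stood at 61.2 CPM in lean 3, against 1.25 to 3.66 CPM in the other lean livers. Cfd stood at 0.264 CPM in NM-FGF19 4, against 0 to 0.0385 CPM in the other NM-FGF19 livers, and at 0.186 CPM in lean 2, against 0 in the other lean livers. Adipoq in HFD control 2 (0.0580 CPM) and Plin1 in NM-FGF19 1 (0.102 CPM) were single libraries with 2 and 3 counts in groups otherwise at 0.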

How the results depend on the processing

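With library totals in place of TMM the median log2 change of all genes moved to 0.29 in HFD control against lean, -0.13 in NM-FGF19 against HFD control and 0.17 in NM-FGF19 against lean livers, from -0.02, 0.00 and -0.01, so changes are read relative to that shift. No value past its threshold changed sign in the alternatives run. In HFD control against lean livers edgeR called 1272 genes, DESeq2 2220, library totals 2611 (2383 higher and 228 lower, against 770 and 502), the replicate block 593, and the fit without both lean 3 and HFD control 3, chosen after seeing the data, 480. The 2 members called became 1 with limma voom, 4 with library totals, 1 with the filter of 1 CPM in 4 samples, which leaves Cfd out because 3 libraries reach 1 CPM, and 1 without lean 3 and HFD control 3. The 8 of the fat storage list became 13 with DESeq2, 5 with limma voom, 13 with library totals and 5 without lean 3 and HFD control 3.

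In NM-FGF19 against HFD control livers 66 genes became 289 with DESeq2, 18 with the replicate block, 38 with only the 2 groups and 38 without lean 3 and HFD control 3. The 1 member called became 4 with DESeq2 and 0 with limma voom, no filter, the filter of 1 CPM, the replicate block, only the 2 groups, and without lean 3 and HFD control 3. The 1 of the fat storage list became 6 with DESeq2 and 0 with the replicate block and with only the 2 groups. In NM-FGF19 against lean livers 228 genes became 969 with DESeq2, 106 with limma voom, 398 with library totals, 40 with the replicate block and 117 with only the 2 groups. The 2 of the fat storage list became 5 with DESeq2 (4 higher and 1 lower) and 1 with limma voom. They became 0 with no filter, 0 with the replicate block, 1 with only the 2 groups and 1 without lean 3 and HFD control 3.

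With 1 library left out, in the order of the comparisons above, genes called ranged over 537 to 1528, 18 to 80 and 67 to 177, members called over 2 to 4, 0 to 2 and 0 to 0, and the fat storage list over 6 to 12, 0 to 3 and 0 to 2. The causes were not tested. Same-numbered libraries did not deviate together (r -0.36 to 0.07 over 12 pairs). That check cannot show how mice were caged, dosed or processed, so whether the replicate numbers pair the mice is not known. Calls lost under the block are given without a reading. Of the alternative log2 values of members, 243 moved by less than 1 SD between replicates and 8 by more (Cfd without lean 2 or NM-FGF19 4, Plin4 without lean 3), and of 542 for other named genes 419 kept their call and 123 lost it. Depth limits Adipoq, Plin1 and, outside HFD control livers, Cfd, all near the floor of 3 counts.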
